A study of Ovis aries with 16 samples.

Results

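Among genes measured in cells of the ovine intervertebral disc, 51 were higher in annulus fibrosus cells (AFC) than in nucleus pulposus cells (NPC) of every animal studied. A gene's level was its read count scaled by the total count of the library (CPM, the share of all counts times 1000000). Genes entered the choice when they reached 2 CPM in at least 4 of the 16 libraries and stayed below a mean of 1000 CPM, which left 12069 of the 30722 genes in the table. The difference was then NPC minus AFC within one animal, on the scale log2(CPM + 0.5). A gene was kept when this difference was below 0 in all 8 animals and at or below -1 on average. The criteria gave 54 genes, of which 3 named in advance were set aside, so the 51 genes were 0.423% of those that could have been chosen. The values that chose the genes are described below without a test.

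The annulus fibrosus is the lamellar outer ring of the disc, rich in fibrillar collagen and made by elongated fibroblast-like cells. It encloses the nucleus pulposus, a hydrated and proteoglycan-rich core whose rounded cells include descendants of the notochord. Genes that separate these cells are used to tell the regions apart, and many of them are known to shift when disc cells grow on plastic. The table names genes only by Ensembl identifier. None of its 30722 identifiers could be matched to a symbol with the annotation used here, so the function of the genes below is not given, and the labelled cell types could not be checked against their defining markers.

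The libraries came from 4 female lambs aged 6 months (young, Y1 to Y4) and 4 female sheep aged 7 to 8 years (old, O1 to O4), all of the Vendée breed. The paper describes the lambs as having healthy discs and an immature skeleton, and the old sheep as having mildly degenerated discs. Age, growth and degeneration therefore cannot be told apart in the comparisons of old and young below. Each animal gave an NPC and an AFC library, so that the groups young NPC, young AFC, old NPC and old AFC held 4 libraries each. The cells were released enzymatically from dissected lumbar discs, grown as monolayers in DMEM with 10% fetal bovine serum and sequenced as bulk poly(A) RNA at passage 1, so the values describe cultured cells and not disc tissue. Total counts ranged from 28782526 to 51800007 per library, with the shallowest libraries being Y4 NPC and Y3 AFC.

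The average difference of the 51 genes ran from -3.74 to -1.01, with a median of -1.48, which corresponds to 2.79-fold more in AFC on the log2(CPM + 0.5) scale. Of these genes, 10 had a mean difference of -2 or lower, 15 lay between -2 and -1.5, and 26 between -1.5 and -1. Bulk libraries cannot tell a larger share of cells that make a transcript from more transcript per cell. The pseudocount of 0.5 CPM shortens the differences of genes with few reads, and 14 of the genes had a mean below 2 CPM in NPC. At the other end, 41 of the genes reached 2 CPM in every AFC library, whereas 2 stayed below it in every NPC library.

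**Figure D1:**
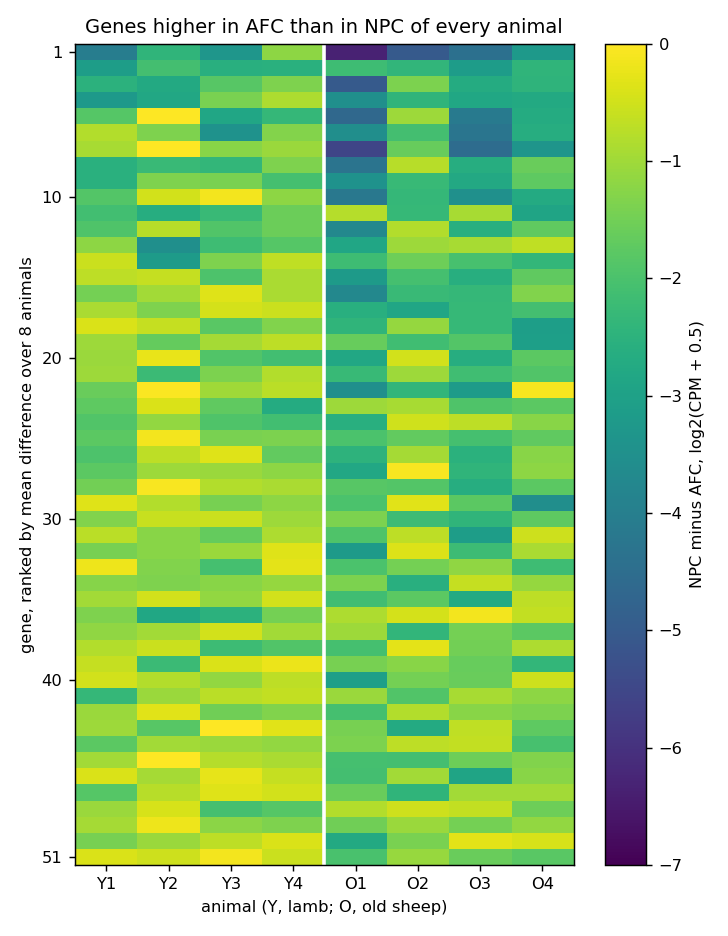
NPC minus AFC difference of the 51 genes (rows, ranked by their mean over 8 animals) in the 4 lambs and the 4 old sheep (columns), in log2(CPM + 0.5); darker colours mark a larger excess in AFC. Every cell is below 0 because of the choice, the largest gap of a gene lies in O1 for 22 genes and the smallest in Y2 for 15.

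A difference below 0 in every animal did not mean that the groups of libraries were apart. All 8 AFC libraries lay above all 8 NPC libraries for 8 of the 51 genes (0.224% of all 12069 genes). Within the lambs the 4 AFC libraries lay above the 4 NPC libraries for 22 genes (2.85% of all genes), and within the old sheep for 30 (3.48% of all genes). Both ages were apart for 15 of the genes (0.456% of all genes), and 14 were apart in neither age (94.1%). As the choice rested on this contrast, these counts are a description only.

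The size of the difference varied between animals. Among the 408 pairs of gene and animal, 285 (69.9%) reached -1 or lower, 47 were above -0.5 and 8 above -0.1. Only 4 of the 51 genes reached -1 in all 8 animals and 12 did so in at least 7. The median difference of the 51 genes was -1.27 in Y1, -0.965 in Y2, -1.35 in Y3 and -1.10 in Y4. It was -2.17 in O1, -1.46 in O2, -2.16 in O3 and -1.73 in O4, so every old sheep lay below every lamb. Over all 12069 genes the median difference of an animal stayed between -0.0697 and 0.0815.

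Individual animals contributed unequally. The largest gap of a gene lay in O1 for 22 of the 51 genes, and the smallest lay in Y2 for 15. The CPM of the 51 genes, summed in each library, was 1274 to 1351 in young AFC and 564 to 738 in young NPC. In old AFC the sum ranged from 1157 to 2478, and in old NPC from 317 to 676. The ratio of the AFC to the NPC sum was 1.83 to 2.26 in the lambs and 3.51 to 5.23 in the old sheep, with O1 highest. The sums of lambs and sheep overlapped in each cell type, while the ratios did not.

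The gene with the largest mean difference was ENSOARG00020008398, at -3.74 ± 1.58 (SD, n = 8 animals). Its level in NPC was 0.697, 1.98, 1.79 and 18.1 CPM in Y1 to Y4, and 2.82, 2.48, 9.71 and 6.38 CPM in O1 to O4. In AFC it was 19.1, 12.9, 22.2 and 42.2 CPM in Y1 to Y4, and 269, 96.3, 215 and 63.6 CPM in O1 to O4. The old AFC libraries were thus the highest of all 4 groups without overlap, and the NPC library of Y4 stood far above those of the other lambs. ENSOARG00020004359 came second, with a mean difference of -2.56 ± 0.38. Its NPC levels ranged from 1.04 to 1.46 CPM in the lambs and from 0.548 to 3.49 CPM in the old sheep, against 7.83 to 16.3 and 7.12 to 17.5 CPM in AFC. All AFC libraries of this gene lay above all NPC libraries, and lambs and old sheep overlapped in both cell types.

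**Figure D2:**
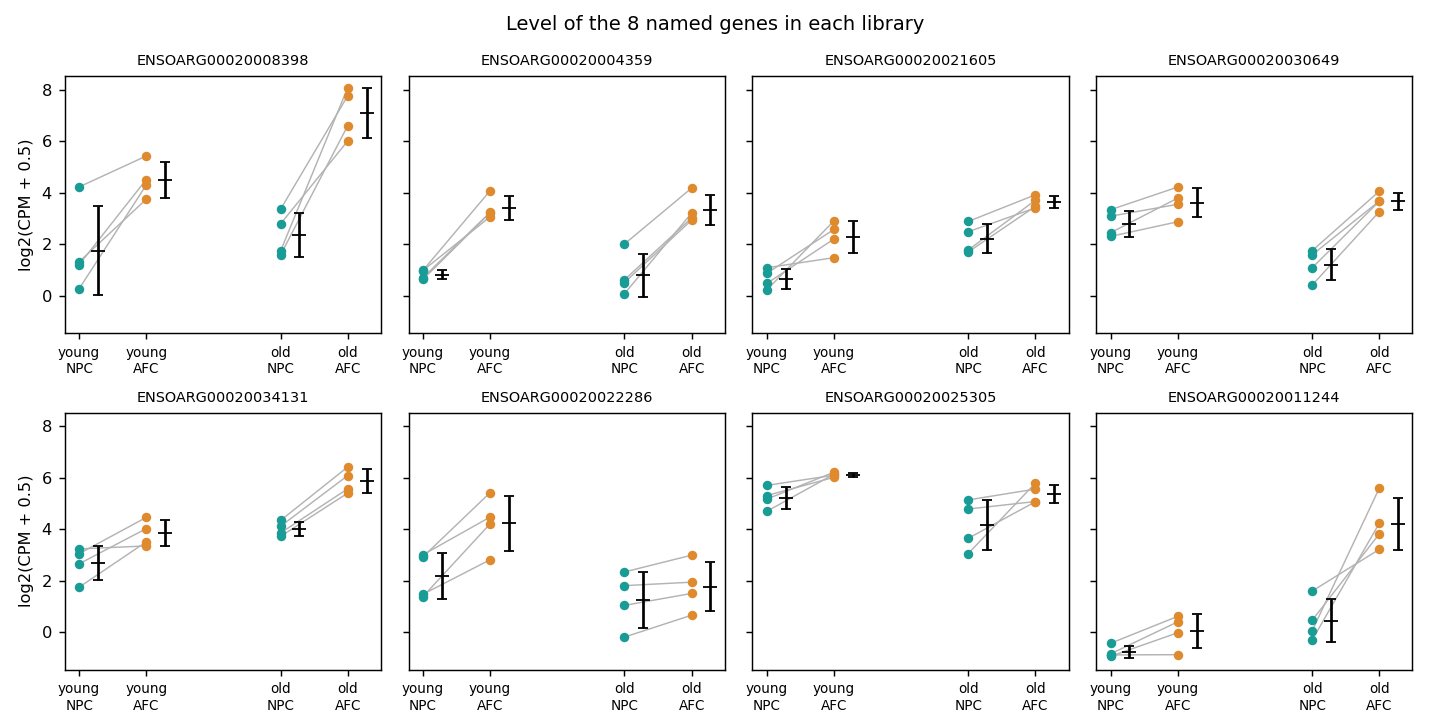
Level of the 8 named genes in each library, as log2(CPM + 0.5); points are libraries (turquoise NPC, orange AFC), grey lines join the 2 libraries of an animal, and black bars give the mean and SD of each group of 4. ENSOARG00020008398 and ENSOARG00020011244 are highest in old AFC, ENSOARG00020022286 is highest in young AFC, and ENSOARG00020004359 shows the same step in both ages.

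The criteria cut through a continuous range. The 3 genes just inside the limit had mean differences of -1.01, -1.06 and -1.11, and the 3 just outside it, also below 0 in every animal, had -0.988, -0.963 and -0.941. In addition 64 genes reached a mean of -1 without being below 0 in all animals. Of these, 32 were below 0 in 7 animals, and the exception was Y2 for 18 of them, O2 for 5, Y3 for 4, Y1 for 3, and O3 and O4 for 1 each. A difference below 0 in all 8 animals, of any size, was found for 309 genes (2.56% of 12069), and the mirror choice gave 72 genes higher in NPC of every animal by a mean of at least 1.

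To read the difference in an animal that had no part in the choice, the same criteria were applied to 7 animals at a time. Between 48 and 79 genes were chosen in this way, and a median of 95.4% of them were below 0 in the animal left out, against a median of 51.9% of all genes. In O1 all 48 chosen genes were below 0, with a median of -2.16. In Y1, Y3 and Y4, 53 of 56, 52 of 57 and 54 of 56 were below 0, with medians of -1.11, -1.15 and -1.002. O3 and O4 had 50 of 52 and 51 of 52 genes below 0, with medians of -2.06 and -1.71. In O2 the share was lower, at 50 of 60 genes, with a median of -1.03. Y2 stood apart, with 55 of 79 genes (69.6%) below 0 and a median of -0.482, while 42.8% of all genes were below 0 in that animal. A difference of -1 or lower was reached by 30.4% to 93.8% of the chosen genes, with Y2 lowest and O1 highest, and by 1.47% to 10.3% of all genes.

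**Figure D3:**
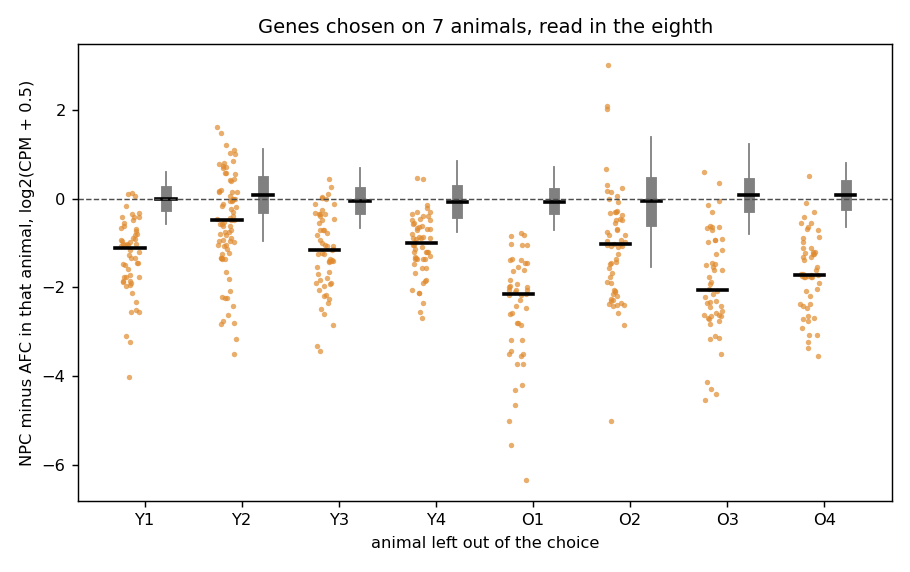
Genes chosen on 7 animals (orange points; black line, median) with their NPC minus AFC difference in the animal that was left out, in log2(CPM + 0.5); grey bars show the middle 50% of all genes in that animal, thin lines the range from the 5th to the 95th percentile, and their black line the median. The chosen genes lie mainly below 0 in each animal, with medians from -2.16 in O1 to -0.482 in Y2, where 24 of 79 genes are not below 0.

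The choice was also made in one age and read in the other. With the 4 old sheep alone (2 CPM in at least 2 of their 8 libraries), 200 genes were chosen. Of these, 70 (35%) were below 0 in all 4 lambs, against 9.19% of all genes, and none was above 0 in all 4 lambs, against 6.83%. Their median difference was -1.56 in the old sheep that chose them and -0.516 in the lambs. With the 4 lambs alone, 49 genes were chosen, of which 35 (71.4%) were below 0 in all 4 old sheep, against 9.93% of all genes. Their median difference was -1.36 in the lambs and -1.37 in the old sheep. A mean difference at or below -1 in the other age was reached by 36 of the 200 genes (18%) and by 30 of the 49 (61.2%), against 0.536% and 1.81% of all genes.

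When these genes were tested in the age that had not chosen them, few passed the threshold of an adjusted p of 0.05 (edgeR quasi-likelihood test, Benjamini-Hochberg adjustment over all genes). Of 197 genes chosen in old sheep and testable in the lambs, ENSOARG00020004359 alone passed (0.00678% of all genes passed in that direction), with an NPC to AFC log2 fold change of -3.02 ± 0.29 (SE, edgeR adjusted p = 0.0262). An unadjusted p under 0.05 with a lower level in NPC was found for 57 of them (28.9%, against 3.08% of all genes) and with a higher level for 0 (3.46% of all genes). DESeq2 passed 22 of them, all lower in NPC (0.468% of all genes), and edgeR with the animal as a block passed 0 (0% of all genes). Leaving out any lamb also gave 0, among the chosen genes and over all genes.

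Of 48 genes chosen in lambs and testable in the old sheep, 3 passed in edgeR (0.0878% of all genes). Each of them was among the 51, which their choice in lambs and their pass in old sheep made likely beforehand. ENSOARG00020008398 had a log2 fold change of -4.93 ± 0.64 and ENSOARG00020034131 of -1.95 ± 0.25 (SE, edgeR adjusted p = 0.0472 for each). The third gene, which had the smallest unadjusted p of them, had a log2 fold change of -3.17 ± 0.39 and the same adjusted p in edgeR. An unadjusted p under 0.05 was found for 28 genes lower in NPC (58.3%, against 6.54% of all genes) and for 0 higher in NPC (7.38% of all genes). DESeq2 passed 25 of them, all lower in NPC (2.51% of all genes), and edgeR with the animal as a block passed 4 (0.135%). Without O1, O3 or O4 none of the chosen genes passed, and without O2 1 did. Over all genes, 0 passed as lower in NPC without O1 or O4, 4 of 14938 without O3 and 18 of 14861 without O2.

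The difference was larger on average in old sheep than in lambs for 42 of the 51 genes and larger in lambs for 9. The median of the genes' mean differences was -1.12 in lambs and -1.80 in old sheep. The change from lambs to old sheep ran from -2.96 to 1.51 with a median of -0.72. Every old sheep lay below every lamb for 8 genes (1.34% of all genes), and every lamb lay below every old sheep for 1 (1.38% of all genes). These values come from the differences that chose the genes and are not tested. The SD of the differences over all genes, 0.404 to 0.698 in the lambs and 0.514 to 0.953 in the old sheep, overlapped between the ages. A mean difference at or below -1 was nevertheless more frequent over all genes in old sheep (1.81%) than in lambs (0.536%). The criteria applied to 1 age likewise chose 200 genes in old sheep and 49 in lambs. Larger differences in old sheep were thus not particular to the 51 genes.

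ENSOARG00020011244 had the largest gain of the difference in old sheep and was picked after its values were seen. Its counts in the lambs were near the limit of detection, with 1, 2, 3 and 7 reads in NPC and 21, 2, 25 and 50 reads in AFC of Y1 to Y4. In the old sheep it reached 0.536, 2.53, 0.31 and 0.877 CPM in NPC and 47.8, 8.79, 18.2 and 13.6 CPM in AFC of O1 to O4. Its difference below 0 in Y2 rested on 2 reads in each library, which cannot be told apart. In each of the other lambs the AFC library held more reads than the NPC library. In all, 5 of the 51 genes had fewer than 10 reads in at least 1 library.

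ENSOARG00020022286, picked in the same way, had the opposite pattern. In AFC its level was 6.53, 17.99, 42.3 and 21.7 CPM in Y1 to Y4 and 1.08, 2.34, 3.35 and 7.45 CPM in O1 to O4. In NPC it ranged from 2.11 to 7.54 CPM in the lambs and from 0.377 to 4.57 CPM in the old sheep. The difference was -2.03 ± 0.74 (SD, n = 4) in lambs and -0.52 ± 0.30 in old sheep, and in the AFC the lowest lamb lay below the highest old sheep.

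**Figure D4:**
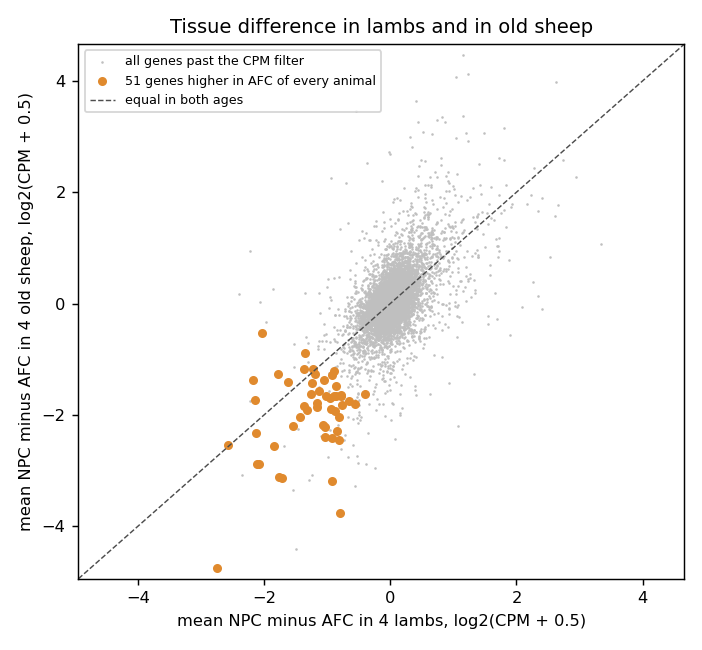
Mean NPC minus AFC difference in the 4 lambs (horizontal) and in the 4 old sheep (vertical), in log2(CPM + 0.5), for all genes past the CPM filter (grey) and the 51 genes (orange); the dashed line marks equal differences. Of the 51 genes, 42 lie below the line and 9 above it.

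The contrast of ages within one cell type is not the one that chose the genes, and it was tested. The same libraries entered the choice, and the age difference in NPC minus that in AFC is the change of the tissue difference with age, so opposite directions in NPC and AFC partly restate the larger differences of the old sheep. The comparison asks whether the genes that mark the annulus side change between lambs and old sheep. In NPC none of the 51 genes passed the threshold in edgeR (0.0129% of all 15521 genes did), while DESeq2 passed 6, of which 4 were higher (0.174% of all genes) and 2 lower (0.283%) in old NPC. At an unadjusted p under 0.05 in edgeR, 6 genes were higher in old NPC (11.8%, against 3.11% of all genes) and 11 were lower (21.6%, against 3.67%). The median log2 fold change of the 51 genes was -0.30, beside 0.02 for all genes, and 19 had a value above 0 and 32 below it. It was -0.19 without O1, -0.18 without O2, -0.55 without O3 and -0.47 without Y1, and 7 genes were lower at an unadjusted p under 0.05 without Y3 (1.86% of all genes in that fit) and likewise without Y4 (2.84%). All 4 old NPC libraries lay above all 4 young ones for 4 genes (3.14% of all genes), and all young above all old for 5 (1.8%).

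The smallest p among genes higher in old NPC belonged to ENSOARG00020021605. It measured 0.883, 1.61, 1.32 and 0.66 CPM in the NPC of Y1 to Y4, and 6.85, 5.07, 2.91 and 2.73 CPM in those of O1 to O4. The old libraries all lay above the young ones, with a log2 fold change of 1.95 ± 0.38 (SE, edgeR adjusted p = 0.181). In AFC it measured 2.27 to 6.97 CPM in lambs and 10.1 to 14.6 CPM in old sheep, again without overlap. For ENSOARG00020030649 the NPC values were 9.58, 4.92, 7.96 and 4.41 CPM in lambs and 1.61, 0.821, 2.84 and 2.49 CPM in old sheep. Its old NPC libraries lay below all young ones, with a log2 fold change of -1.81 ± 0.39 (SE, edgeR adjusted p = 0.253). In AFC the same gene overlapped between the ages, at 6.78 to 18.05 CPM in lambs and 9.05 to 16.1 CPM in old sheep.

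In AFC the median age difference lay on the other side of 0. None of the 51 genes passed in edgeR (0.00644% of all genes did), and DESeq2 passed 7, of which 6 were higher (0.509% of all genes) and 1 lower (0.941%) in old AFC. At an unadjusted p under 0.05 in edgeR, 13 genes were higher in old AFC (25.5%, against 3.87% of all genes) and 2 were lower (3.92%, against 5.48%). The median log2 fold change was 0.54, beside 0.02 for all genes, with 38 values above 0 and 13 below. Without O3 the median was 0.27, with 31 values above 0 and 20 below, and 1 gene was lower at an unadjusted p under 0.05 without O2, O3, Y3 or Y4 (2.83% to 5.15% of all genes in those fits). All old AFC libraries lay above all young ones for 7 genes (1.92% of all genes), and all young above all old for 2 (1.78%). An unadjusted p under 0.05 was shared by both cell types for 7 of the 51 genes (1.53% of all genes) and belonged to NPC alone for 10 (5.25%) and to AFC alone for 8 (7.83%). It was absent for 26 (85.4%), and both contrasts came from one fit. Whether the age effect differed between the cell types was not tested, since that contrast is built from the differences that chose the genes.

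ENSOARG00020034131 had the smallest p among genes higher in old AFC. Its AFC levels were 10.9, 9.7, 21.5 and 15.8 CPM in Y1 to Y4 and 67.4, 41.8, 85.1 and 47.1 CPM in O1 to O4. No old library overlapped a young one, and the log2 fold change was 2.08 ± 0.34 (SE, edgeR adjusted p = 0.133). In NPC it ranged from 2.86 to 8.92 CPM in lambs and from 12.7 to 19.8 CPM in old sheep, also without overlap. The lowest p among genes lower in old AFC was that of ENSOARG00020022286, with a log2 fold change of -2.59 ± 0.77 (SE, edgeR adjusted p = 0.294). ENSOARG00020011244 reached 2 CPM in no lamb library and passed the CPM filter only through the old sheep, where it is high, so its age difference is given as a description. Its young AFC libraries held 2 to 50 reads and its old ones 447 to 2120. It is 1 of the genes counted as higher in old NPC, in old AFC and in the summed counts, and the only one of the 51 without a library at 2 CPM in one of the ages. In all, 4 of the 51 genes, with this one, reached 2 CPM in under 4 lamb libraries but at least 4 old ones. For 1 gene it was the reverse. Of these, only ENSOARG00020011244 had an unadjusted p under 0.05 for age in NPC or AFC (edgeR), but all stay in the medians and counts of direction.

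**Figure D5:**
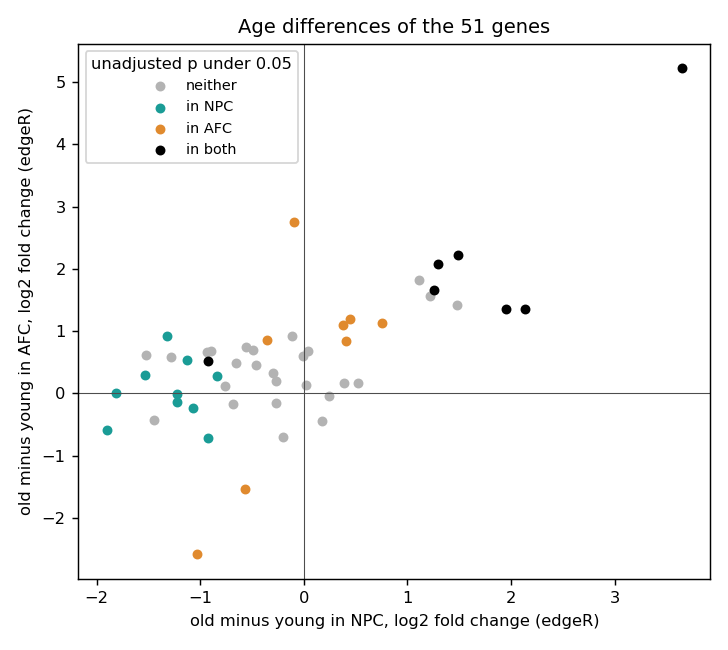
Old minus young log2 fold change (edgeR) of the 51 genes in NPC (horizontal) and AFC (vertical), coloured by whether the unadjusted p was under 0.05 in NPC, in AFC, in both or in neither. In NPC 32 of 51 genes lie left of 0, in AFC 38 lie above 0, and no gene passed the adjusted threshold in edgeR.

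The direction of both age comparisons is given together for the 51 genes. By group means of log2(CPM + 0.5), 19 genes (37.3%) were higher in AFC and lower in NPC of old sheep, beside 19.6% of all genes. The reverse, lower in AFC and higher in NPC, held for 1 gene (1.96%), beside 21.3% of all genes. Both cell types were higher in old sheep for 18 genes (35.3%, beside 35.7%) and both lower for 13 (25.5%, beside 23.4%). A larger difference in old sheep, as in 42 of the 51 genes, fixes part of this distribution, and no test was made of it.

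When the counts of both libraries of an animal were added, none of the 51 genes passed in edgeR (0% of all genes did). At an unadjusted p under 0.05, 11 were higher in old animals (21.6%, against 3.38% of all genes) and 3 were lower (5.88%, against 4.64%). The median log2 fold change of the 51 genes was 0.27, but it was -0.09 with the mean log2 CPM of both libraries in limma and -0.10 in limma-voom with the animal as a block, so the list as a whole had no fixed direction. In summed counts it was 0.17 without O1, 0.46 without O2 and 0.06 without O3, where 6 genes were lower at an unadjusted p under 0.05 (4.70% of all genes). In summed counts the AFC library weighs more, as more of these genes' reads lie there. With the block 2 genes passed, both higher in old animals (0.0644% of all genes). ENSOARG00020034131 was one of them and had a log2 fold change of 1.89 ± 0.27 in summed counts (SE, edgeR adjusted p = 0.109). ENSOARG00020025305 had the smallest p among genes lower in old animals. It measured 64.1 to 73.8 CPM in AFC of lambs and 33.1 to 54.9 CPM in those of old sheep, which did not overlap. In NPC it measured 25.4 to 51.6 and 7.82 to 34.7 CPM, which did. Its log2 fold change was -0.79 ± 0.18 (SE, edgeR adjusted p = 0.335).

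Between animals of one group, the 51 genes had a higher median SD of log2(CPM + 0.5) than all genes. For NPC it was 0.475 in lambs and 0.736 in old sheep, and for AFC 0.562 and 0.668. Over all genes it was 0.160, 0.229, 0.252 and 0.249 in the same order. Among the 3782 genes with a mean of 5.51 to 20.8 CPM, the middle range of the 51 genes, it was 0.171, 0.244, 0.258 and 0.260. Of the 51 genes, 51, 47, 47 and 49 lay above these medians in the respective groups. Across the 8 animals the differences of 2 of these genes had a median correlation of 0.275 over the 1275 pairs, beside 0.058 for all genes, and 31.0% of the pairs had one above 0.5, beside 24.4%. The genes share their libraries and their counting depth, so this is a description without a test.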

How the data were processed

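The authors extracted RNA from NPC and AFC at passage 1 of 4 lambs and 4 sheep, prepared stranded mRNA libraries and mapped them by STAR to ARS-UI_Ramb_v2.0, a Rambouillet assembly. What the authors deposited were raw read counts for each Ensembl gene, without pooling or a low-count filter. The submitters' processing notes name FastQC 0.11.8, fastp, STAR 2.7.10b and HTSeq 2.0.3. The strand setting of the counting is not given in the sources used here, so overlapping genes and near-identical copies are uncertain. Samples were grouped by their labels, and animals were numbered by ascending identifier. None of the 16 columns was left out. The 24 pairs of libraries within a group differed by a chi-square per degree of freedom of 55.9 to 393, so none repeated another.

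CPM used column totals, and differences used log2(CPM + 0.5). Counts were tested in R 4.3.3 with the quasi-likelihood test of edgeR 4.0.16 after its low-count filter and TMM normalisation, with Benjamini-Hochberg adjustment over all genes and a threshold of 0.05. An SE printed with an edgeR fold change is that fold change, without sign, divided by the square root of the test's F statistic. Age contrasts shared one fit of 4 groups. Age over both tissues used the summed counts of an animal. DESeq2 1.42.0, limma 3.58.1, other scalings, filters and pseudocounts, and fits without each animal were alternatives. Python 3.11.15 with pandas 2.3.3 applied the criteria. The scripts were tested on simulated data. NPC and AFC of one replicate number came from one animal, which pairs them; over 16 libraries the correlation within an animal was 0.0529 in limma. Total counts limit the precision of genes with few reads. The labels say that the libraries of a group are different animals.

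The 51 genes, the comparisons and the alternatives were chosen with earlier results of these data known. Named genes, at most 2 in each direction of a comparison, are the 2 with the largest mean difference and, in each age comparison, that with the smallest unadjusted p in each direction. The 2 genes of the extremes by age were added after their values were seen. Gene lists and marker lists could not be used, as no identifier had a symbol. The study's module table gives 11 genes by Ensembl identifier, and none of the 51 was among them. Its other entries could not be compared with the 51 genes. No sequences were read.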

Additional observations from a re-analysis of the deposited data

Results flagged for a closer look

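Of 56 groups of 4 values examined for a single far value, 1 had one, where chance flags about 1 in 20 such groups. The ratio of the summed CPM of the 51 genes in AFC to that in NPC was 5.23 in O1, against 3.51 to 3.66 in the other old sheep. Such sums weigh abundant genes most. By the median difference of the 51 genes O1 did not stand apart, at -2.17 beside -2.16 in O3. O1 also had the largest gap for 22 of the 51 genes. Without it, 40 of the 51 genes had a larger difference in old sheep than in lambs.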

How the results depend on the processing

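The number of genes meeting the criteria, 51, became 52 with TMM library sizes (50 shared), 42 with log2(CPM + 2), 64 with no filter on low CPM and 52 with no upper limit. Leaving out each animal gave 48 to 79 genes, the highest without Y2. The median share below 0 in the animal left out was 95.4% to 96.3% under the other scaling and pseudocount, and 40 to 44 of the 51 genes had a larger difference in old sheep, both added after seeing the data. Leaving out each animal gave 0 to 1 of the 51 genes past the threshold for age in NPC (1 without O4) and 0 over both tissues. For age in AFC it gave 0 to 1 (without O2, ENSOARG00020011244 alone, which passed the CPM filter only through the old sheep). Over all genes, 5 of 15650 passed in NPC without O4 and 5 of 15625 in AFC without O2. DESeq2 gave 6 in NPC and 7 in AFC, and the animal as a replicate block gave 2 over both tissues. Genes chosen in old sheep and tested in lambs gave 0 with the replicate block, 22 in DESeq2 and 0 without any 1 lamb. Genes chosen in lambs and tested in old sheep gave 25 in DESeq2, 4 with the replicate block and 0 to 1 without any 1 sheep. The cause was not tested. For the named genes, 63 alternative age fold changes kept direction and side of the threshold and 5 passed it in DESeq2 or with the block. Of their alternative mean differences 79 moved by less than 1 SD and 1 by more (ENSOARG00020004359, -1.84 with log2(CPM + 2)). Without O1 the mean difference of ENSOARG00020025305 was -0.817, past the limit of -1. None of these values reversed. Over these alternatives the adjusted p in NPC ran from 0.000368 to 0.704 for ENSOARG00020021605 and from 0.00237 to 0.795 for ENSOARG00020030649. In AFC it ran from 2.3e-06 to 0.321 for ENSOARG00020034131 and from 0.026 to 0.90 for ENSOARG00020022286. Over both tissues it ran from 0.0136 to 0.287 for ENSOARG00020034131 and from 0.18 to 0.642 for ENSOARG00020025305. Genes with few reads are limited by counting error.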
